A study of Mus musculus with 6 samples.

Results

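Catecholamines (dopamine, noradrenaline and adrenaline) are the transmitters of sympathetic neurons and adrenal chromaffin cells. Tyrosine hydroxylase (Th) makes L-DOPA in the rate-limiting step, with tetrahydrobiopterin as its cofactor, whose own synthesis starts with GTP cyclohydrolase 1 (Gch1). Aromatic L-amino acid decarboxylase (Ddc) turns L-DOPA into dopamine, vesicular monoamine transporters (Slc18a1 and Slc18a2) load it into vesicles, and dopamine beta-hydroxylase (Dbh) converts it to noradrenaline there. The noradrenaline transporter (Slc6a2) takes released transmitter back up, and the monoamine oxidases (Maoa and Maob) break it down. These 9 genes were selected by symbol from a count table of 24421 genes, and all 9 have a row.

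The counts came from Neuro2a cells, a mouse neuroblastoma line labelled as wild type. All 6 cultures received an adenovirus and were harvested 48 h later. In 3 of them (shCtrl) the virus carried a control short hairpin RNA, and in the other 3 (shFam172a) a hairpin against Fam172a. Cells without virus were not analysed here, and the labels name a single hairpin virus per group, so an effect of the hairpin and an effect of losing Fam172a cannot be told apart. Nothing in the labels says that the 3 cultures of a group were separate infections, so the p-values cover only sample-to-sample variation, part or all of which could be technical.

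Gene counts summed to between 11250312 and 12820531 per shCtrl library and between 21690467 and 23409319 per shFam172a library, so depth differed with the group. Rn45s, the ribosomal RNA precursor, was at 409 to 565 CPM (depth-scaled counts, as counts per 1000000) in shCtrl and at 792 to 1140 CPM in shFam172a, and rows that name no gene took 33.5% to 34.5% of counts in shCtrl and 35% to 37.6% in shFam172a. Their part in the results was not tested. Fam172a itself averaged 19.1 ± 0.469 CPM (SD, n = 3) with the control hairpin and 8.90 ± 0.543 CPM with its own hairpin, and every shFam172a library lay below every shCtrl library. Sympathoadrenal markers were present, with Hand2 at 256 CPM, Phox2a at 121 CPM and Isl1 at 112 CPM on average in shCtrl. Elavl4, a neuronal RNA-binding protein of the same list, was lower in shFam172a, at 213 ± 7.35 CPM against 302 ± 3.74 CPM (n = 3; log2 fold change -0.50, adjusted p = 2.74e-16 by edgeR), while those 3 were higher. Of 6 macrophage markers only Cd68 passed the filter on low counts, and it was higher in shFam172a (log2 fold change 1.0, adjusted p = 0.0482 by edgeR, with 3 to 24 counts per library). The list summed to 0.234 to 0.943 CPM in shCtrl and to 1.11 to 1.16 CPM in shFam172a, with Ptprc and Itgam at 0, and its part in the results was not tested. In the Schwann and glial list Sox10 and Aqp4 had 0 or 1 count in each library, and the list summed to 22.3 to 23.0 CPM and to 22.4 to 26.5 CPM. Fibroblast and smooth muscle markers summed to 29.6 to 33.5 CPM and to 33.5 to 38.0 CPM, mostly Acta2, which was higher in shFam172a (log2 fold change 0.28, adjusted p = 0.00119), and endothelial markers to 14.3 to 16.4 CPM and to 15.5 to 16.8 CPM. All values below are from bulk RNA, in which more cells with a transcript and more transcript per cell cannot be told apart.

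The enzymes and vesicle transporters of the pathway were transcribed in this line, while Slc6a2, Maoa and Maob were at or near 0. Th was about 2-fold higher in shFam172a, Slc18a1 1.83-fold and Ddc 1.41-fold, while Dbh and Slc18a2 did not pass the test. Of the 9 genes, 6 passed the filter, and each of these 6 was above the filter level (0.58 CPM) in every library of both groups. By edgeR's quasi-likelihood test with Benjamini-Hochberg adjustment over 12820 genes, 4 of the 6 were higher in shFam172a (adjusted p under 0.05) and 0 were lower. Of all genes tested, 36.1% were called, 17.5% as higher and 18.6% as lower. For the same 4 members every shFam172a library was above every shCtrl library, which held for 22.5% of all genes tested. With adjusted p, DESeq2 called 2 higher and 0 lower, and limma-voom 3 higher and 0 lower. Over the 12820 genes tested, DESeq2 called 1725 higher and 1836 lower, and limma-voom 2178 higher and 2363 lower. At an unadjusted p under 0.05 each of the 3 tools had 4 higher and 0 lower. By edgeR, at least 5184 of the 12820 genes tested met that threshold in either direction. The median log2 fold change of the 6 was 0.30, against -0.0003 over all genes tested. The 9 genes were chosen with earlier results of these data known, so these comparisons with the whole table describe the genes and test nothing.

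**Figure D1:**
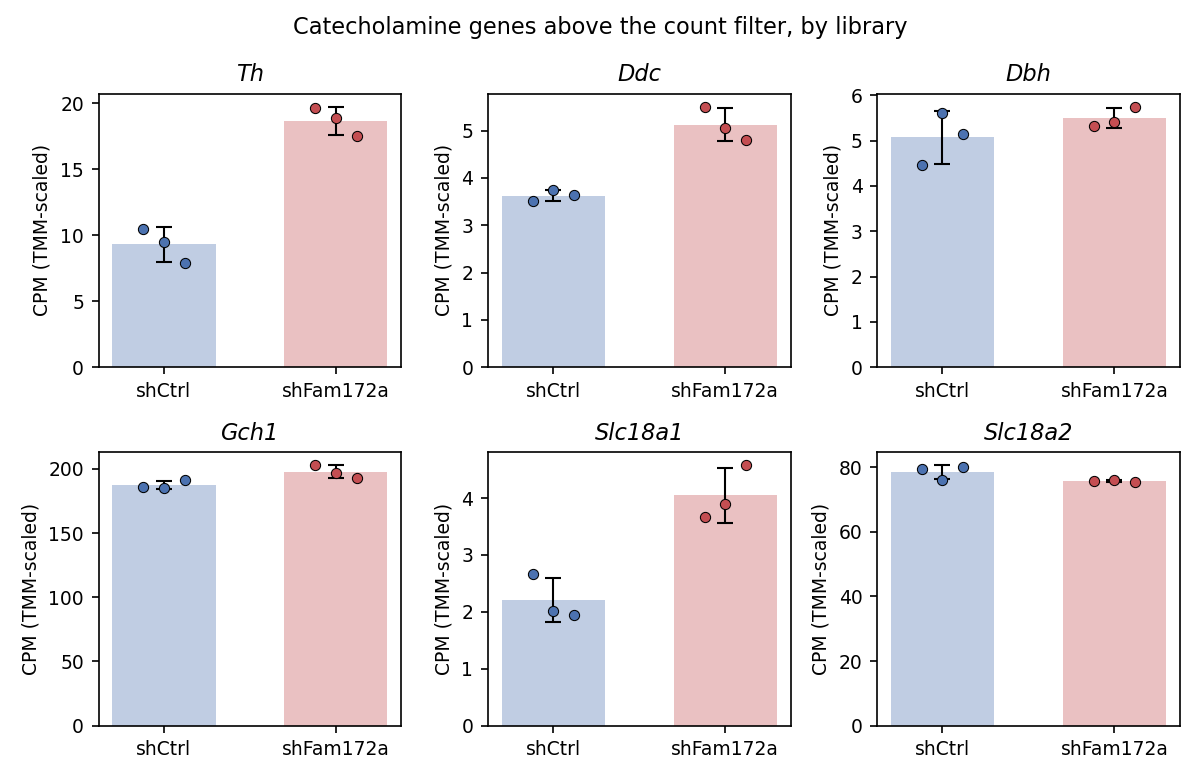
TMM-scaled CPM (vertical axes, linear from 0) of the 6 catecholamine genes above the filter in the 3 shCtrl and 3 shFam172a libraries; points are libraries, bars are means and error bars are SD. The groups stand apart for Th, Ddc, Slc18a1 and, by a small step, Gch1, and overlap for Dbh and Slc18a2.

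Th (ENSMUSG00000000214.11) is a minus-strand gene of chromosome 7, from 142892752 to 142931128 in GRCm38. This is the GENCODE span, which reaches upstream of the RefSeq start site used for the promoter below. The 14 merged exons of Th overlap no other gene. The shCtrl libraries held 122, 122 and 89 counts of it and the shFam172a libraries 423, 440 and 390. Scaled for depth, these were 10.5, 9.5 and 7.88 CPM against 19.6, 18.9 and 17.5 CPM. Every shFam172a library was well above the highest shCtrl library, and the gap between the groups was wider than the spread inside either. The log2 fold change was 1.0 ± 0.098 (SE), with a 95% interval of 0.81 to 1.20 and adjusted p = 1.49e-10 by edgeR. That is a fold change of 1.75 to 2.30 at the ends of the interval, and it placed Th at rank 106 from the top by log2 fold change among the 12820 genes. Its nearest neighbours in the count table had few or no counts: Ins2 had 0 counts over all 6 libraries and Ascl2 had 10.

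Promoters were to be shown for called members with an absolute log2 fold change of at least 0.58, which were Th and Slc18a1. The RefSeq promoter set used here has no entry for Slc18a1. Whether any motif plays a part in the level of these genes was not tested. The Th promoter is shown, and beside it stands that of Slc18a2. The latter was chosen after the values were seen because it holds the same full motif and did not pass the test. Both are RefSeq windows of 300 bases on GRCm38.p6, from 250 before to 50 after the transcription start, written 5′ to 3′ on the gene's strand. Capitals mark matches on either strand to ACGTG or GCGTG (the core of hypoxia response elements), TGACG (the core of cAMP response elements) and TGANTCA (the AP-1 site and its variants). Th is the window chr7:142899946-142900245 on the minus strand and Slc18a2 the window chr19:59260628-59260927 on the plus strand.
Th: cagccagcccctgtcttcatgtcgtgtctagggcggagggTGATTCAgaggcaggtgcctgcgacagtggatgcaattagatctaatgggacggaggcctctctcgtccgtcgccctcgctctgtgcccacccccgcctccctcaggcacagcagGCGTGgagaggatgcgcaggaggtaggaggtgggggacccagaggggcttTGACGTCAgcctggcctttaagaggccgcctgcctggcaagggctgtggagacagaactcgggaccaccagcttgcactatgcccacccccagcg
Slc18a2: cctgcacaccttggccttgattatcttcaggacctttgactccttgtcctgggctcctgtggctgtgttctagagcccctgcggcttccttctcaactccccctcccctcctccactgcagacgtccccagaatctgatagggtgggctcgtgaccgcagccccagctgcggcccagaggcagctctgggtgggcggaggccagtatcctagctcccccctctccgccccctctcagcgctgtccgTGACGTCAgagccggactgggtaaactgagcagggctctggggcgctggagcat

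In the Th window the AP-1-like match begins 210 bases before the start site, the GCGTG match 95 bases before it and the cAMP response element 45 bases before it. The last is the full palindrome TGACGTCA, which reads as TGACG on both strands, so its 2 TGACG matches overlap. In the Slc18a2 window the same palindrome begins 4 bases before the start site. Of 32851 promoters of this length in the table, 1.8% hold the palindrome, 20.8% TGACG, 32.4% GCGTG, 19.6% ACGTG and 7.8% TGANTCA. The table has 7 promoters for 6 of the 9 genes (Th, Ddc with 2, Dbh, Gch1, Slc18a2 and Maoa), of which 5 hold TGACG, 2 the palindrome, 2 GCGTG, 2 TGANTCA and 0 ACGTG. The windows of Th, Gch1, Dbh, Slc18a2 and Maoa hold a TGACG, and neither Ddc window does. Slc18a1, Slc6a2 and Maob have no entry among these promoters.

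Ddc, the decarboxylase of the next step, lies on chromosome 11 at 11814101 to 11898144 on the minus strand (ENSMUSG00000020182.16). Its counts were 41, 48 and 41 in shCtrl and 119, 118 and 107 in shFam172a, or 3.51, 3.74 and 3.63 CPM against 5.51, 5.06 and 4.81 CPM. The lowest shFam172a library was above the highest shCtrl library. The log2 fold change was 0.50 ± 0.16 (SE), with a 95% interval of 0.17 to 0.82 and adjusted p = 0.0132 by edgeR. DESeq2 gave a log2 fold change of 0.50 with adjusted p = 0.0543, so the call ended with that tool. With any 1 library left out, the edgeR call of Ddc held by a narrow margin, with adjusted p up to 0.0489. Of the genes on either side of Ddc, Fignl1 was lower (log2 fold change -0.16, adjusted p = 0.00030) and Grb10 did not pass (0.20, adjusted p = 0.65).

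Dbh, the enzyme that makes noradrenaline, lies on chromosome 2 at 27165233 to 27183200 on the plus strand (ENSMUSG00000000889.8). It had 52, 72 and 58 counts in shCtrl and 115, 126 and 128 in shFam172a, which were 4.46, 5.61 and 5.14 CPM against 5.33, 5.40 and 5.75 CPM. The groups overlapped, with shCtrl replicate 2 inside the shFam172a range. The log2 fold change was 0.11 ± 0.15 (SE, adjusted p = 0.586 by edgeR). Its 95% interval runs from a fold change of 0.881 to one of 1.33. It overlaps that of Ddc (1.13 to 1.765) and lies below that of Th.

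Gch1, on chromosome 14 at 47153895 to 47189413 on the minus strand (ENSMUSG00000037580.10), had the highest level of the 9. Its counts were 2167, 2371 and 2160 in shCtrl and 4388, 4603 and 4286 in shFam172a, or 186, 185 and 191 CPM against 203, 197 and 193 CPM. The groups did not overlap, but the gap between the nearest libraries was small. The log2 fold change was 0.08 ± 0.032 (SE), a difference of 5.64%, and adjusted p was 0.0499 by edgeR. This call ended under 10 of 16 alternatives, among them without shCtrl replicate 1 (adjusted p = 0.108), without shCtrl replicate 2 (0.163), without shFam172a replicate 1 (0.198) and without shFam172a replicate 2 (0.0884).

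The vesicular transporters differed in their response. Slc18a2 (VMAT2), the neuronal form, lies on chromosome 19 at 59260896 to 59296012 on the plus strand (ENSMUSG00000025094.8). It was at 79.5, 76.1 and 80 CPM in shCtrl and at 75.6, 76.1 and 75.3 CPM in shFam172a, from counts of 928, 977 and 903 and of 1633, 1776 and 1677. The groups overlapped, and the log2 fold change was -0.05 ± 0.042 (SE, adjusted p = 0.36 by edgeR), with a fold change between 0.91 and 1.02 at the ends of the 95% interval. In the annotation 111 bases of its exons overlap Gm29261 on the opposite strand, and whether the counting used strand is not given in the sources used here.

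Slc18a1 (VMAT1), the form known from chromaffin and other endocrine cells, lies on chromosome 8 at 69037711 to 69089235 on the minus strand (ENSMUSG00000036330.12). It was low, with 31, 26 and 22 counts in shCtrl and 79, 91 and 102 in shFam172a. These were 2.66, 2.02 and 1.95 CPM against 3.66, 3.90 and 4.58 CPM, with no overlap between the groups. The log2 fold change was 0.87 ± 0.20 (SE), with a 95% interval of 0.47 to 1.28 and adjusted p = 0.00058 by edgeR. It had rank 151 from the top by log2 fold change among the 12820 genes. Higher calls with a log2 fold change of at least 0.58 made up 2.18% of the genes tested, and Th and Slc18a1 were the members among them.

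Of the reads of both transporters together, Slc18a1 took 3.23%, 2.59% and 2.38% with the control hairpin and 4.61%, 4.87% and 5.73% with the Fam172a hairpin. The exact binomial 95% intervals of single libraries, which cover counting error only, ran from 1.5% to 4.56% over shCtrl and from 3.67% to 6.92% over shFam172a. Those of the nearest libraries overlapped, while the 3 values of each group did not. Slc18a2 was the more abundant form in every library of both groups.

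The 3 genes of uptake and oxidation were below the filter. Slc6a2 and Maob had 0 counts in all 6 libraries, which over the summed 103089799 gene counts allows up to 0.0291 CPM each (3 counts, for counting error only). Maoa had 3 counts in all, 2 in shCtrl and 1 in shFam172a, and the exact Poisson 95% interval of that total reaches 0.085 CPM. No difference was detectable at this depth for any of them. Maoa and Maob lie 21468 bases apart on chromosome X, and their outer neighbours Cypt1 and Ndp also had 0 counts. Slc6a2 lies on chromosome 8 between Lpcat2 with 0 counts and Ces1a with 1.

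Per kb of merged exon, on the scale of CPM per kb, the order of levels was Gch1, Slc18a2, Th, Dbh, Ddc, Slc18a1 and then Maoa in both groups. In shCtrl the means were 29.9 ± 0.572 for Gch1, 15 ± 0.408 for Slc18a2, 3.92 ± 0.550 for Th, 1.88 ± 0.215 for Dbh, 0.813 ± 0.0251 for Ddc and 0.409 ± 0.0720 for Slc18a1 (SD, n = 3). In shFam172a they were 31.6 ± 0.854, 14.5 ± 0.0757, 7.89 ± 0.444, 2.04 ± 0.0842, 1.15 ± 0.0800 and 0.749 ± 0.0887 in the same order. No 2 neighbours among these 6 overlapped between libraries of a group. The lengths are those of GENCODE M21, which may not be the annotation behind the counts.

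**Figure D2:**
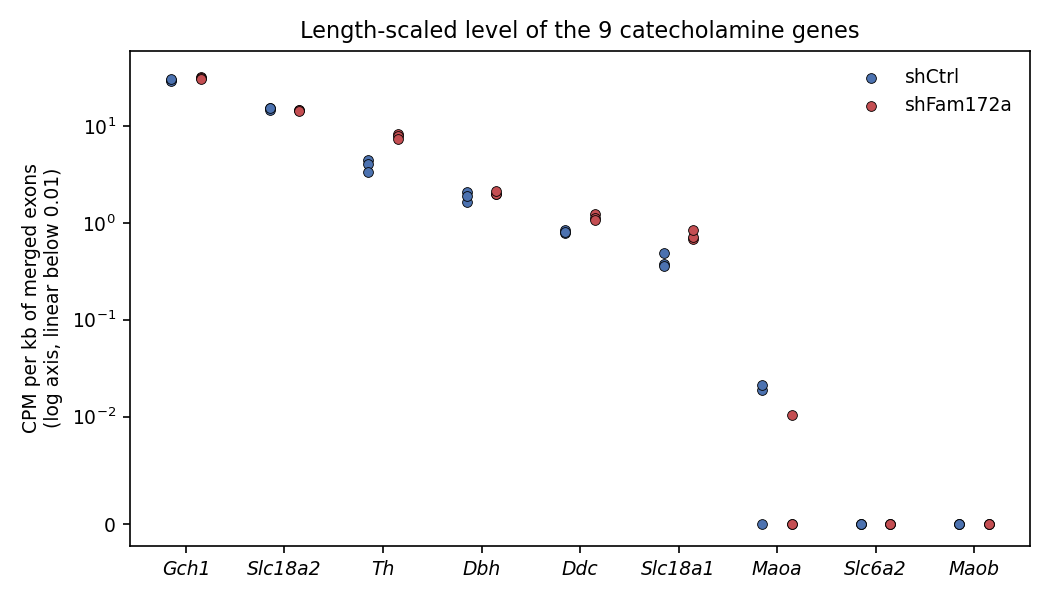
Level of the 9 genes in CPM per kb of merged exon (vertical axis, logarithmic above 0.01 and linear below), with 1 point per library for shCtrl and shFam172a. The order from Gch1 at about 30 down to Slc18a1 below 1 is the same in both groups, Maoa is near 0, and Slc6a2 and Maob are at 0 in all 6 libraries.

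Ratios between genes of the same library do not depend on how libraries are scaled. For 5 such ratios, chosen after the values were seen, counts per kb were divided within each library. Th over Ddc was 5.62, 4.80 and 4.10 in shCtrl and 6.71, 7.04 and 6.88 in shFam172a. Th over Dbh was 2.67, 1.93 and 1.75 in shCtrl and 4.19, 3.98 and 3.47 in shFam172a. Th over Gch1 was 0.149, 0.136 and 0.109 in shCtrl and 0.255, 0.253 and 0.241 in shFam172a. For each of these the groups did not overlap. Slc18a1 over Slc18a2 was 0.0323, 0.0257 and 0.0236 against 0.0468, 0.0496 and 0.0588, and Ddc over Dbh 0.476, 0.402 and 0.427 against 0.624, 0.565 and 0.504. Each ratio gave p = 0.10 in a two-sided exact permutation test, the smallest that 3 libraries against 3 allow, and adjusted p = 0.10 over the 5. The pairs were picked with their values known, so these p-values are no evidence of a difference.

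**Figure D3:**
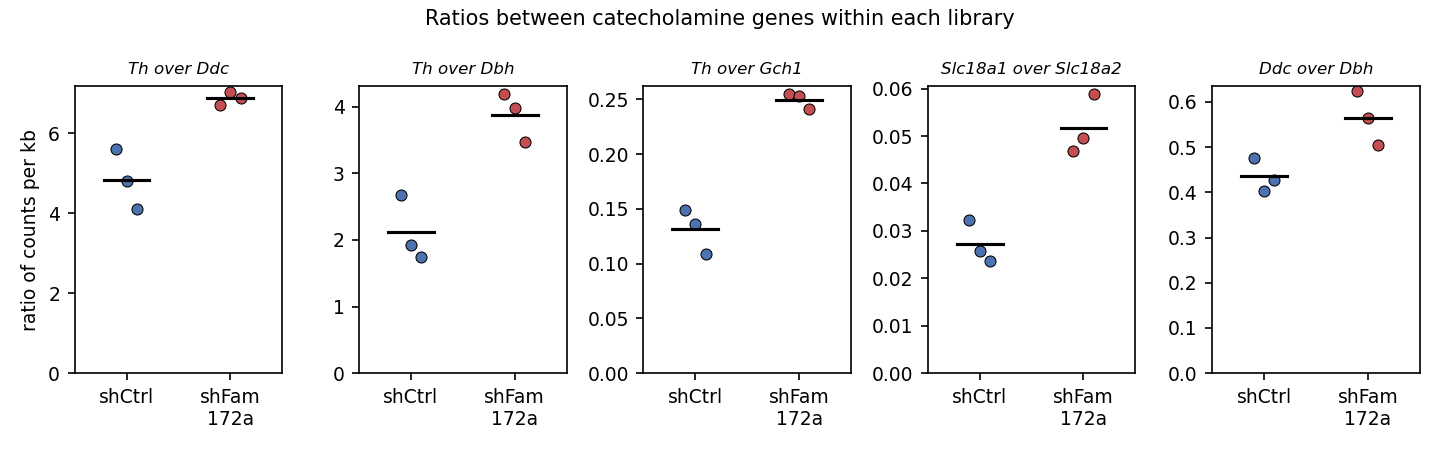
Ratio of counts per kb between 2 genes of the same library (vertical axes, linear from 0), with 1 point per library and the mean as a line. The 5 gene pairs were chosen after the values were seen. In every panel the 3 shFam172a libraries lie above the 3 shCtrl libraries, as for Th over Dbh with 3.47 to 4.19 against 1.75 to 2.67.

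Among genes around the tetrahydrobiopterin cofactor, an inhibitor of its synthesis and genes of its recycling were called lower in shFam172a. No enzyme of its synthesis was called lower, but this split rests on the threshold. Pts, a synthesis enzyme, was at -0.23 (adjusted p = 0.0722 by edgeR), a larger fall than those of the called recycling genes Qdpr and Pcbd1. Of 6 genes, all tested, 3 were lower in shFam172a and 0 higher, against 18.6% lower over the table; the median log2 fold change was -0.20. At an unadjusted p under 0.05, 5 were lower and 0 higher by edgeR. At least 5184 of the 12820 genes tested met that threshold in either direction. With adjusted p, DESeq2 called 2 lower and 0 higher, and limma-voom 3 and 0. Gchfr, the feedback regulator that binds and inhibits GTP cyclohydrolase 1, was at 23.3, 26.2 and 23.1 CPM in shCtrl and at 19.3, 19.6 and 16.4 CPM in shFam172a. The groups did not overlap, and the log2 fold change was -0.40 ± 0.079 (SE, adjusted p = 0.000125 by edgeR). Qdpr, the dihydropteridine reductase that recycles the cofactor, was at -0.18 ± 0.045 (adjusted p = 0.00145), and Pcbd1, the dehydratase of the same cycle, at -0.13 ± 0.050 (adjusted p = 0.0318). In the annotation 332 bases of the Qdpr exons overlap Gm42413 on the opposite strand. The call of Pcbd1 ended with DESeq2 and when any of 4 libraries was left out (shCtrl replicate 2 or 3, shFam172a replicate 1 or 3), with adjusted p up to 0.23. Pts and Spr, the enzymes that complete the synthesis after Gch1, were at -0.23 and 0.12 and did not pass, and neither did Pcbd2 at -0.29. Gch1 itself was at 0.08, as given above.

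**Figure D4:**
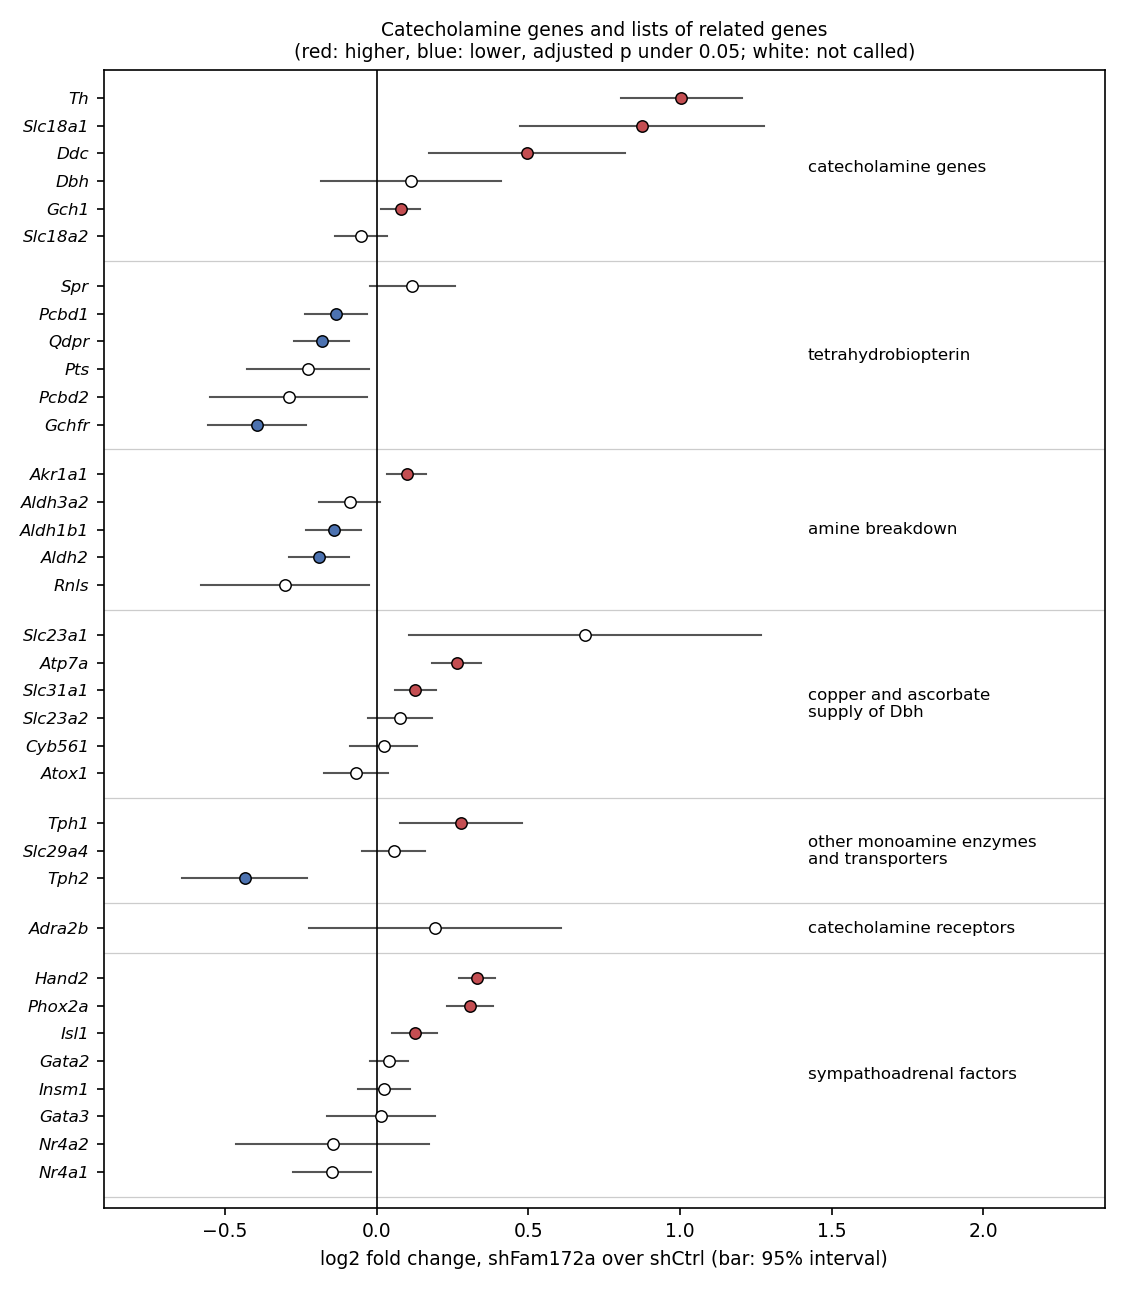
Log2 fold change of shFam172a over shCtrl (horizontal axis) with its 95% interval for the tested catecholamine genes and 6 lists of related genes; red and blue points are higher and lower at adjusted p under 0.05, and white points did not pass. Th, Slc18a1 and Ddc lie farthest to the right among the called genes, and 5 of the 6 tetrahydrobiopterin genes lie left of 0.

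Dbh needs copper and ascorbate. Of 6 genes that supply them, 2 were higher and 0 lower by edgeR, DESeq2 and limma-voom alike. Over all genes tested, edgeR called 17.5% higher and 36.1% in either direction, so 2 of 6 is near the share called over the table. At an unadjusted p under 0.05, edgeR had 3 higher and 0 lower, where at least 5184 of the 12820 genes tested met that threshold. The median log2 fold change was 0.10. Atp7a, the copper pump that loads secreted enzymes, went from 78.7, 79.3 and 77.7 CPM to 92.9, 95.2 and 94.9 CPM, with no overlap (log2 fold change 0.26 ± 0.040, adjusted p = 1.79e-06 by edgeR). The other was Slc31a1, the copper importer, named after its value was seen, at 0.13. Cyb561, which carries electrons to ascorbate inside the vesicle, was named in the same way, at 0.02 with adjusted p = 0.782.

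Genes of amine breakdown other than the oxidases showed small differences in both directions. Of 8 genes, 5 were tested; 1 was higher and 2 were lower, against 17.5% and 18.6% of all genes tested, and the median log2 fold change was -0.14. Aldh2, an aldehyde dehydrogenase that clears the products of monoamine oxidase, had the smallest p, with 73.9 ± 5.65 CPM in shCtrl against 64.6 ± 2.77 CPM in shFam172a (n = 3; log2 fold change -0.19 ± 0.049, adjusted p = 0.00195 by edgeR). Without shCtrl replicate 3 its call ended, with adjusted p = 0.0638. The other calls, named after their values were seen, were Aldh1b1 at -0.14 and Akr1a1 at 0.10, and the calls of both ended when certain libraries were left out. For Aldh1b1 these were shCtrl replicate 2 and shFam172a replicate 2 (adjusted p up to 0.101), and for Akr1a1 shCtrl replicate 3 and shFam172a replicate 1 (up to 0.0711).

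Other monoamine genes were tested in 3 of 11 cases. Tph2, the neuronal tryptophan hydroxylase of serotonin synthesis, was at 14.5, 15.6 and 18.6 CPM in shCtrl and at 12.3, 10.3 and 13.3 CPM in shFam172a. The groups did not overlap, and the log2 fold change was -0.44 ± 0.10 (SE, adjusted p = 0.000759 by edgeR), so this gene fell while Th, the corresponding hydroxylase for tyrosine, rose. Tph1, the non-neuronal form, was at 11.0, 11.4 and 11.2 CPM in shCtrl and at 12.2, 14.8 and 13.7 CPM in shFam172a (0.28 ± 0.099, adjusted p = 0.0258). Its call ended with DESeq2 and without shCtrl replicate 1, 2 or 3 or shFam172a replicate 2, with adjusted p up to 0.137. Pnmt, the enzyme that makes adrenaline, and Slc22a2 had 0 counts in all 6 libraries, and the dopamine transporter Slc6a3 had 2. The remaining tested gene, named after its value was seen, was Slc29a4, a plasma membrane monoamine transporter of low affinity, at 51.9 ± 2.77 CPM in shCtrl against 53.9 ± 2.09 CPM in shFam172a (n = 3; log2 fold change 0.06, adjusted p = 0.42 by edgeR).

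Transcripts of catecholamine receptors were scarce. Of 14 dopamine and adrenergic receptors, 7 had 0 counts in all libraries and only Adra2b, an alpha2 adrenoceptor, passed the filter. Adra2b was at 2.50 ± 0.410 CPM in shCtrl against 2.85 ± 0.144 CPM in shFam172a (n = 3; log2 fold change 0.19 ± 0.21, adjusted p = 0.499 by edgeR). With 1 receptor tested, 0 were called by edgeR, DESeq2 or limma-voom, and 0 had an unadjusted p under 0.05.

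Of 10 transcription factors of the sympathoadrenal lineage or known to act on Th, 8 were tested, 3 were higher and 0 lower by edgeR, DESeq2 and limma-voom, with a median log2 fold change of 0.03. Over all genes tested, 17.5% were higher and 36.1% were called in either direction. At an unadjusted p under 0.05, edgeR had 3 higher and 1 lower, where at least 5184 of the 12820 genes tested met that threshold. Hand2 was at 256 ± 3.65 CPM in shCtrl against 321 ± 0.794 CPM in shFam172a, and Phox2a at 121 ± 7.32 and 150 ± 2.02 CPM (n = 3). Both were higher in every shFam172a library, by less than Th, and each overlaps an exon on the opposite strand (Hand2os1 and Inppl1). Epas1, the HIF-2 alpha subunit, had 4 counts over all 6 libraries and was below the filter.

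The genes whose profile over the 6 libraries was nearest to that of Th, by the root mean square difference of centred log2 CPM among 10069 genes, were Prr9 (0.0645), Prelid2 (0.0695), Vwa1 (0.0722), Gdap10 (0.0857) and Bnip3l (0.088). Bnip3l, a mitophagy receptor, went from 111, 99.7 and 97.0 CPM to 220, 203 and 210 CPM. Prelid2, of a family of mitochondrial lipid transfer proteins, went from 11.9, 12.4 and 10.4 CPM to 25.2, 23.7 and 21.4 CPM. Their log2 fold changes of 0.89 to 1.10 were near that of Th, as the measure requires, so these values describe a likeness and carry no test. The minimum of 5 CPM was on the mean over all 6 libraries, and Prr9 was below it in every shCtrl library (3.19 to 4.20 CPM).

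Fitted to shFam172a libraries thinned to the mean shCtrl depth, the log2 fold change was 0.97 for Th (adjusted p = 1.01e-10), 0.88 for Slc18a1 (adjusted p = 0.000991) and 0.62 for Ddc (adjusted p = 0.00531) by edgeR. Under the same thinning, Dbh was at 0.23 (adjusted p = 0.274). The thinning was a single random draw, and how far these values vary between draws was not tested.

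**Figure D5:**
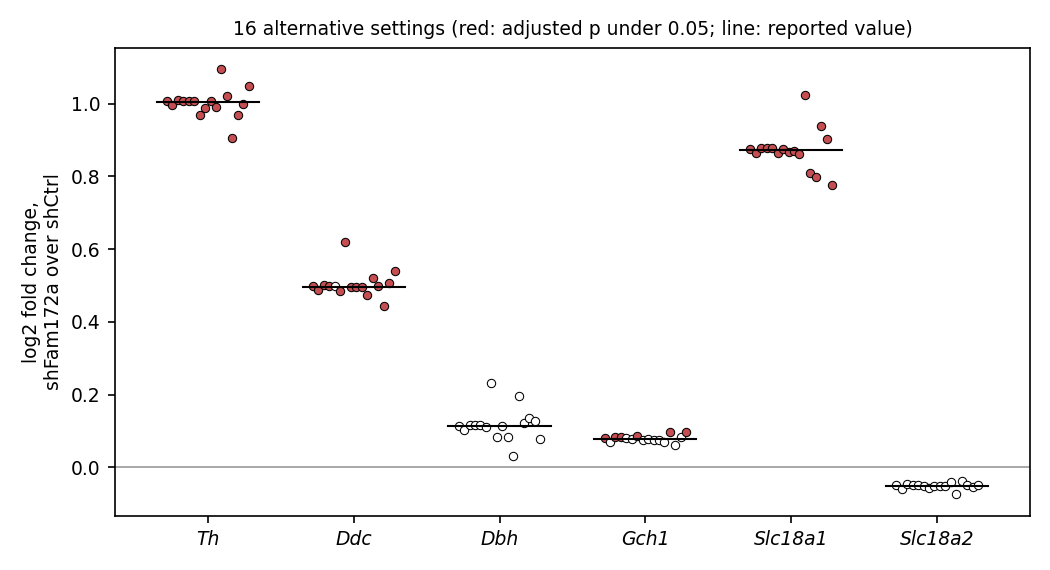
Log2 fold change of shFam172a over shCtrl (vertical axis) for the 6 tested genes under 16 alternative settings of scaling, filter, test, depth, block and libraries; red points passed adjusted p under 0.05, white points did not, and the line is the reported value. Th stays between 0.91 and 1.10 and Slc18a1 between 0.78 and 1.02, all red, Ddc has 1 white point, and Gch1 lies close to 0 with 10.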

How the data were processed

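The authors deposited raw counts per gene symbol from paired-end RNA-seq of 6 libraries. Per the submitters' processing notes, HISAT2 2.0.5 and HTSeq were used with mm10; annotation and strand setting: not given in the sources used here. Left out were the 5 rows that name no gene, 33.5% to 37.6% of all counts of a library.

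Genes were filtered with filterByExpr (minimum count 10), TMM-scaled and fitted in edgeR 4.0.16 under R 4.3.3 (robust glmQLFit, then glmQLFTest), with group as the sole term, two-sided. Alternatives used DESeq2 1.42.0, limma 3.58.1 (voom) and other scaling, filters, depth and libraries. An SE is the log2 fold change divided by the square root of F. The fit was tested on simulated data. Positions and exon lengths are from GENCODE M21 (GRCm38), and promoters from RefSeq. In GENCODE M21, exons of Aldh2 (130 bases), Cyb561 (377), Ache (98) and Pcbd2 (27) also overlap a gene on the opposite strand.

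The 9 genes and the lists were chosen with earlier results of these data known. The text names all 9. From each list it names the called genes with an absolute log2 fold change of at least 0.25, or the gene with the smallest p where there is none. Other list genes are named outside this rule, among them Qdpr, Pcbd1, Pts, Spr, Pcbd2, Epas1, Pnmt, Slc22a2 and Slc6a3. For likeness to Th it names the 5 nearest genes with a mean of at least 5 CPM over the 6 libraries (log2 CPM with a prior count of 2), leaving out predicted symbols. Some genes of the lists are not reported here.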

Additional observations from a re-analysis of the deposited data

How the results depend on the processing

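The results were recomputed under 16 alternatives, of which 6 left out 1 library each. Th, Slc18a1, Dbh and Slc18a2 kept their direction and their side of the threshold in all 16, and Ddc in 15. With DESeq2, 2 of the 9 genes were called higher (Th and Slc18a1), and 1 of the other monoamine genes was called. With 1 library left out, 3 to 4 of the 9 genes were higher and 0 were lower, 2 to 3 tetrahydrobiopterin genes, 1 to 3 genes of amine breakdown, 2 to 3 of copper and ascorbate supply, 1 to 2 other monoamine genes, 0 receptors and 3 to 4 sympathoadrenal factors were called, and 3681 to 4319 genes across the table. Deviations of same-numbered libraries of the 2 groups correlated at -0.005, -0.004 and -0.010 over genes, so the numbers were not taken as pairs, and no library correlated best with its own number. With the replicate block, 4468 genes were called in place of 4627, and 3 of the 9 genes were higher, since Gch1 had adjusted p = 0.0755. With the block and length and GC offsets, 4644 genes were called and Gch1 had adjusted p = 0.0522. With length and GC offsets alone, 1860 genes were higher and 2783 lower across the table, in place of 2241 and 2386. At this depth no difference could be seen for Slc6a2, Maoa and Maob, and Slc18a1, Ddc and Dbh rest on 22 to 72 counts per shCtrl library.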

Other observations

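Markers of other transmitters, listed to check the identity of the line, held 1 gene with a change close in size to that of Th. Ache, the acetylcholinesterase that ends cholinergic transmission, had 26.9, 27.2 and 28.7 CPM in shCtrl and 51.7, 56.4 and 52.1 CPM in shFam172a. The log2 fold change was 0.95 ± 0.058 (SE, adjusted p = 2.85e-16 by edgeR), and all 3 shFam172a libraries were above all shCtrl libraries. The genes that define a cholinergic neuron were near 0 in both groups: Chat, which makes acetylcholine, had 20 counts over all 6 libraries, the vesicular transporter Slc18a3 had 4 and the choline transporter Slc5a7 had 1. Of 6 genes of GABA and glutamate transmission, only the glutamate transporter Slc17a7 passed the filter, at 0.651 ± 0.214 CPM and 0.651 ± 0.177 CPM (n = 3), with adjusted p = 0.971 by edgeR.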
